A study of Mus musculus with 3 samples.

Results

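Cadherin and protocadherin genes were followed through a list of Isl1 binding regions from mouse cardiac progenitor cells. The list was reduced to distinct peaks, and every peak whose assigned gene symbol began with Cdh or Pcdh was kept, which left 94 of 14082 peaks on 10 chromosomes. These peaks carried the names of 30 of the 98 cadherin and protocadherin genes of the RefSeq gene table. The peaks were then divided between the clustered protocadherins, whose symbols begin with Pcdha, Pcdhb or Pcdhg, and all other family genes.

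The study mapped Isl1 by ChIP-Seq (chromatin immunoprecipitation and sequencing), which recovers the DNA crosslinked to a protein. There were 2 Isl1 ChIP samples (DSHB antibody clone 39.4D5) and 1 input sample without antibody, all from E14 Tg(Nkx2-5-EmGFP) ES cells, a mouse embryonic stem cell line carrying a green fluorescent reporter of the cardiac gene Nkx2-5, differentiated to cardiac progenitors and collected on day 5. All 3 samples shared this line and differentiation scheme, the labels gave no sorting step, and no mutant or untreated group was part of the design. The single deposited list combined both ChIP samples and held positions, the gene with the closest transcription start site (TSS) and the distance to it, but no peak height or read number, so the depth behind a peak is unknown and no spread between replicates can be given. The list holds no expression value, so the cell type label could not be checked against markers.

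Cadherins are calcium-dependent adhesion proteins built from repeated extracellular domains. The classical cadherins hold neighbouring cells together and are tied to the actin skeleton by catenins, and a change of cadherin accompanies the passage of cells between epithelial, mesenchymal, endothelial and muscle states. The clustered protocadherins are arranged in tandem alpha, beta and gamma arrays, in which many first exons have a promoter of their own, and are known for giving neurons individual surface identities, whereas Isl1, a transcription factor of the LIM-homeodomain class, marks the progenitors of the second heart field.

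Family peaks near to and far from genes differed in copy number and in mean base composition, and stretches of both are printed here. Of the 82 peaks beyond 10 kb, 76 had centres whose 31-base words occurred at least 2 times in the genome by their median. At 37 of the 82 the median was at least 1000. The stretches below are from such peaks of Cdh20, Cdh9, Cdh11 and Cdh6, which are among the family genes with the most peaks, and of Pcdh17, and are shown because 15 peak centres of 9 genes held the same 31 bases, printed in capitals (mouse build mm9, 5′ to 3′ on the strand given).

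Cdh20 (chr1:105050549-105050629, plus strand): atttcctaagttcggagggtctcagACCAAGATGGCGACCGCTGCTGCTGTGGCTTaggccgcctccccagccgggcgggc
Cdh9 (chr15:15837987-15838067, plus strand): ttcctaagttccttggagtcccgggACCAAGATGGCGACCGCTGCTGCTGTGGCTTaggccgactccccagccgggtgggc
Cdh11 (chr8:104671779-104671859, plus strand): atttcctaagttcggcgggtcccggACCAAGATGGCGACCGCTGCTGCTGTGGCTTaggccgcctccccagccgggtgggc
Cdh6 (chr15:14099400-14099480, minus strand): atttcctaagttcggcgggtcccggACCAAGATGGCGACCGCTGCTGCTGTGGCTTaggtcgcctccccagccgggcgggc
Pcdh17 (chr14:83357877-83357957, minus strand): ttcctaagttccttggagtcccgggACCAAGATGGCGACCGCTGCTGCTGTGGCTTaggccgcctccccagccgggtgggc

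All 5 stretches lay in intergenic sequence, between 637.1 and 1614.8 kb from the TSS of the gene whose name they carry. The 31 bases in capitals occurred 5776 times in the mm9 genome, counting both strands, and stood in the central 200 bp of 1051 of all 14082 peaks (7.46%). The lower-case flanks were not identical between the peaks.

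A second, different run of 31 bases was shared by 12 peak centres of 9 family genes. It is shown for Cdh20, Pcdh9 and Cdh9, the genes with the most peaks, and for Cdh11 and Cdh6, which were tied with Pcdh15 and Pcdh18 and taken alphabetically. Pcdh15 also held the run and Pcdh18 did not.

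Cdh20 (chr1:105014148-105014228, minus strand): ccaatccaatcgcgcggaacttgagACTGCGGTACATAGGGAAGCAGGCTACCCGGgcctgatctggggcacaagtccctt
Pcdh9 (chr14:92995496-92995576, plus strand): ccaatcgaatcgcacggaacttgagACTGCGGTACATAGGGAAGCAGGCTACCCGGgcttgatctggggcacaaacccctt
Cdh9 (chr15:17098722-17098802, minus strand): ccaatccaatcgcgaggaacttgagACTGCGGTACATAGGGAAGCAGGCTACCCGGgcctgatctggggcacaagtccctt
Cdh11 (chr8:103732779-103732859, plus strand): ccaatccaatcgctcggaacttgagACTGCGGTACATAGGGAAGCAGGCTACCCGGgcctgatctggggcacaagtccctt
Cdh6 (chr15:14461345-14461425, plus strand): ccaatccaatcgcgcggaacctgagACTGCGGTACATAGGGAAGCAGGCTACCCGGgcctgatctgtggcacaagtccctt

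This run occurred 5392 times in the genome and in the centres of 577 of all peaks (4.10%). Peaks on such runs were thus listed at many places besides the cadherin genes.

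The peaks within 1 kb of a TSS had another makeup. They are shown for 4 promoters with every CpG, the dinucleotide at which vertebrate DNA is methylated, in capitals. The 120 bases are the peak centre on the gene's strand, except for Cdh24, where they end at the base before the annotated TSS.

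Cdh4 (chr2:179177646-179177765, plus strand): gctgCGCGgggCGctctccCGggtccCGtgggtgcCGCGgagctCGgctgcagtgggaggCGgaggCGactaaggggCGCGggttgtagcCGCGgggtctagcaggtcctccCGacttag
Cdh22 (chr2:165059808-165059927, minus strand): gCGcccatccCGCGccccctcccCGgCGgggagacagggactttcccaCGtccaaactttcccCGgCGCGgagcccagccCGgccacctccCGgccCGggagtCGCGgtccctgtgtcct
Cdh24 (chr14:55260202-55260321, minus strand): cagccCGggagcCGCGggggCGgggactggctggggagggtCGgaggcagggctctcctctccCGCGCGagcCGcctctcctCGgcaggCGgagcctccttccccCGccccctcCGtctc
Pcdh17 (chr14:84842734-84842853, plus strand): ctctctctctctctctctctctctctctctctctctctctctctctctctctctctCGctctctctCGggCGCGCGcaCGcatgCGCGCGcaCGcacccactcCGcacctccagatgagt

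The Cdh4 and Cdh22 stretches lay in an intron of the annotated gene and held 15 and 14 CpGs. The Cdh24 stretch, directly upstream of the gene, held 13 CpGs and was 79.2% G and C. The Pcdh17 stretch, intergenic and upstream of the gene, opened with a run of CT repeats and held 11 CpGs at 61.7% G and C, the lowest of the 4.

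Counting every peak, clustered and other family genes stood on opposite sides of the share over all genes. A peak was assigned to 4 of the 58 clustered protocadherins (6.90%, 95% Wilson interval 2.71 to 16.4) and to 26 of the 40 other family genes (65.0%, 49.5 to 77.9). Over all 21896 protein-coding genes of the RefSeq table the share was 37.5%. With single-copy peaks alone, defined below, the shares were 3 of 58 (5.17%, 1.77 to 14.1) and 14 of 40 (35%, 22.1 to 50.5), beside 27.6% of all protein-coding genes. These intervals, and those below, cover counting error only, and neighbouring genes of one array share their surroundings, so they are a description and not a test. Each peak was assigned to its closest TSS, and the spacing of start sites differed between the parts. The clusters held 46 annotated TSSs in 0.889 Mb, and the Cdh6 to Cdh18 region those of 6 genes in 10.0 Mb. Per Mb, the clusters held 6.75 peaks and 3 regions around other family genes 2.69 to 4.03. Whether spacing accounts for the shares was not tested.

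**Figure D1:**
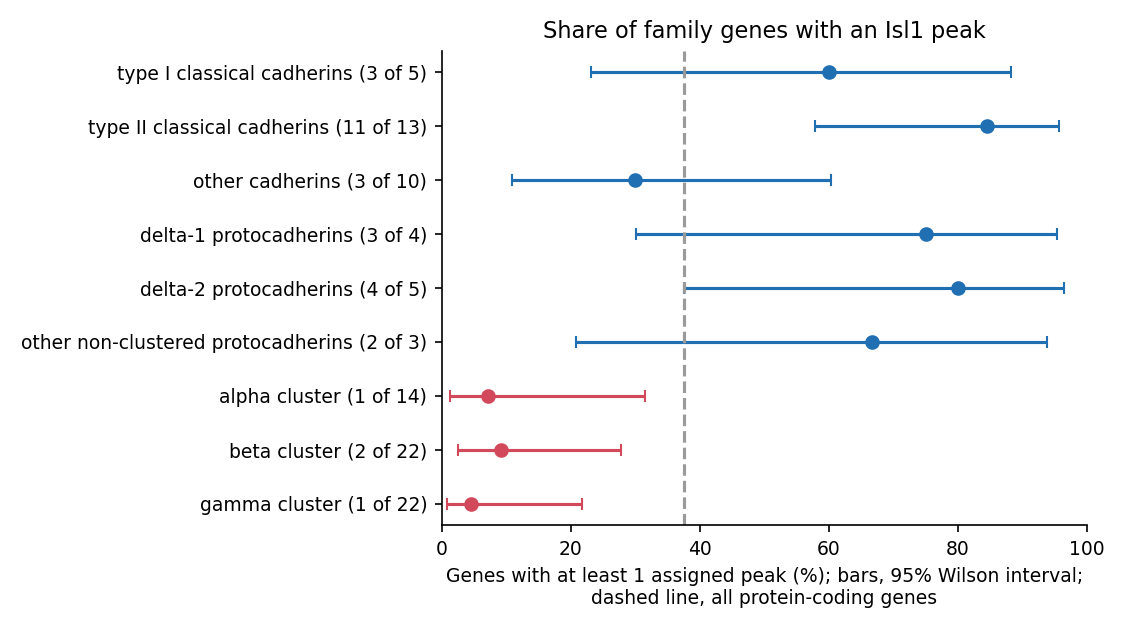
Share of genes with at least 1 assigned Isl1 peak (x axis, percent) in 9 subgroups of cadherin and protocadherin genes, with the number of genes in brackets; points are shares, bars are 95% Wilson intervals and the dashed line marks the 37.5% of all protein-coding genes. The 3 protocadherin clusters lie between 4.55% and 9.09%, with intervals wholly below the line, and type II classical cadherins at 84.6% lie above it. Single-copy and multi-copy peaks are counted alike.

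Among the other family genes, the type II classical cadherins led when every peak was counted. Of these, a subgroup that mediates sorting of neuronal, mesenchymal and endothelial cells, 11 of 13 had a peak (84.6%, 57.8 to 95.7). Multi-copy sequence, defined below, held 40 of their 45 peaks, and only Cdh9, Cdh12, Cdh22 and Cdh24 had a single-copy peak. The type I classical cadherins, the main adhesion molecules of epithelium, muscle and the early nervous system, had peaks at 3 of 5 genes (Cdh2, Cdh3 and Cdh4). Of the remaining Cdh genes, 3 of 10 had a peak (Cdh13, Cdh23 and Cdh26), and none of the 5 Cdhr genes was among them. Of the non-clustered protocadherins, which regulate cell contacts and movement in the nervous system and elsewhere, 9 of 12 had a peak (75%, 46.8 to 91.1). Here 32 of 36 peaks were multi-copy, and only Pcdh1, Pcdh8, Pcdh17 and Pcdh18 had a single-copy peak. Over all protein-coding genes 27.6% had a single-copy peak.

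The lead of the other family genes did not extend to promoters. Promoter-near peaks, at most 1 kb from the TSS the list assigns, were found for 5 of the 40 other genes and 1 of the 58 clustered ones, beside 23.2% of all protein-coding genes. Counted by peaks, 6 of the 94 family peaks lay within 1 kb (6.38%, 2.96 to 13.2), against 38.5% of all peaks. The promoter-near genes were Cdh2, Cdh4, Cdh22, Cdh24, Pcdh17 and Pcdhac2.

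Cdh2 encodes N-cadherin, the classical cadherin of the myocardium and of mesoderm. Its only peak was 1761 bp wide (chr18:16966383-16968144) with its midpoint 492 bp downstream of the assigned TSS, in the annotated untranslated region of the gene. Its centre was single-copy, 71.5% G and C, and had an observed to expected CpG ratio of 1.07.

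Cdh4 encodes R-cadherin, a close relative of N-cadherin. Its only peak was 1614 bp wide (chr2:179176898-179178512), 569 bp downstream of the TSS, with an intronic midpoint and a centre of 75% G and C. The list assigned no other peak to either N-cadherin or R-cadherin, although by the annotation 8 peaks lay in the territory of Cdh2 and 2 in that of Cdh4. A territory reaches halfway to the nearest TSSs of neighbouring protein-coding genes.

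Cdh22 and Cdh24 are type II classical cadherins. The Cdh22 peak was 2024 bp wide (chr2:165058855-165060879), 370 bp downstream of the TSS, and the second widest of the family. The Cdh24 peak was 999 bp wide (chr14:55259663-55260662), 39 bp downstream of the TSS, and also overlapped a coding exon of the gene model Gm17606. These were the only type II cadherins with a peak within 1 kb, and neither had a second peak.

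Pcdh17, a delta-2 protocadherin, had a narrow promoter peak of 391 bp (chr14:84842598-84842989), 577 bp upstream of the TSS and covering the CT repeats printed above. It was the only promoter-near gene that also had distant peaks, 3 of them, between 75 and 1485.5 kb upstream and all multi-copy. The 6 promoter-near centres averaged 72.3% ± 7.33 G and C (SD over peaks, n = 6), close to the 73.7% ± 5.88 of all 5416 peaks within 1 kb.

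Another 6 family peaks lay between 1 and 10 kb from the assigned TSS. They belonged to Pcdh8 (1306 bp), Pcdhgb8 (1873 bp), Pcdh1 (2094 bp), Pcdhb22 (3526 bp), Cdh3 (5512 bp) and Cdh23 (9320 bp). Measured to the GENCODE annotation of the same build, the peak of Pcdh1, a protocadherin of airway epithelium, was 114 bp from a TSS of its own gene, and that of Cdh23, a hair-cell tip-link cadherin, was 87 bp from one. The Pcdh8 peak, 1027 bp wide, lay in the coding exon of this delta-2 protocadherin of presomitic mesoderm and brain. The Cdh3 peak, for P-cadherin, lay upstream in an intron of the neighbouring gene model 6030452D12Rik.

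Most family peaks were far from any start site. Beyond 10 kb lay 82 of the 94 peaks (87.2%, 79.0 to 92.5), against 51.1% of all peaks. By the midpoint, 70.2% of family peaks were intergenic and 23.4% intronic, against 41.1% and 27.5% of all peaks. Of the 92 peaks whose gene has a model of its own in the annotation, 37 lay upstream of it, 25 inside it and 30 past its 3′ end.

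**Figure D2:**
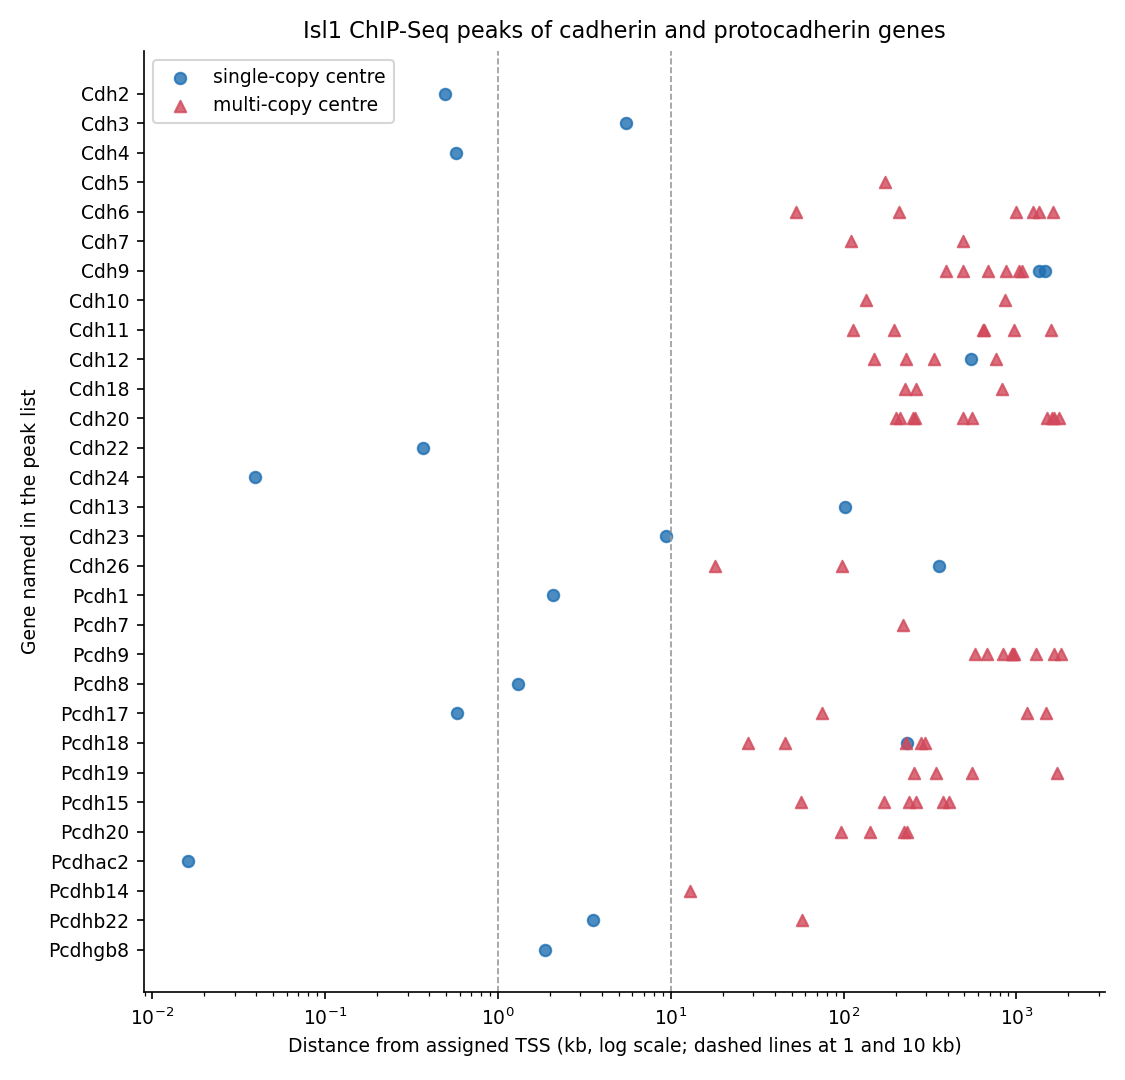
Distance of each of the 94 family peaks from its assigned TSS (x axis, kb, log scale) for the 30 genes with a peak (y axis); blue circles are peaks with a single-copy centre, red triangles peaks with a multi-copy centre, and the dashed lines mark 1 and 10 kb. All 12 peaks within 10 kb are single-copy, and 76 of the 82 beyond it are multi-copy.

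Distance and copy number went together. A peak was called multi-copy when the 31-base words of its central 200 bp occurred at least 2 times in the genome by their median. By this measure 76 of the 94 family peaks were multi-copy (80.9%, 71.7 to 87.5), against 46.5% of all peaks. Beyond 10 kb the share was 76 of 82 (92.7%, 84.9 to 96.6), against 81.2% of all peaks at that distance, and within 10 kb it was 0 of 12, which allows a share of up to 25.0%, against 10.3% of all peaks that near. With 75-base words, 41 of the 94 family peaks were multi-copy (43.6%), against 28.4% of all peaks. How many reads could be placed uniquely at the multi-copy peaks was not tested, because the list gives no reads.

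**Figure D3:**
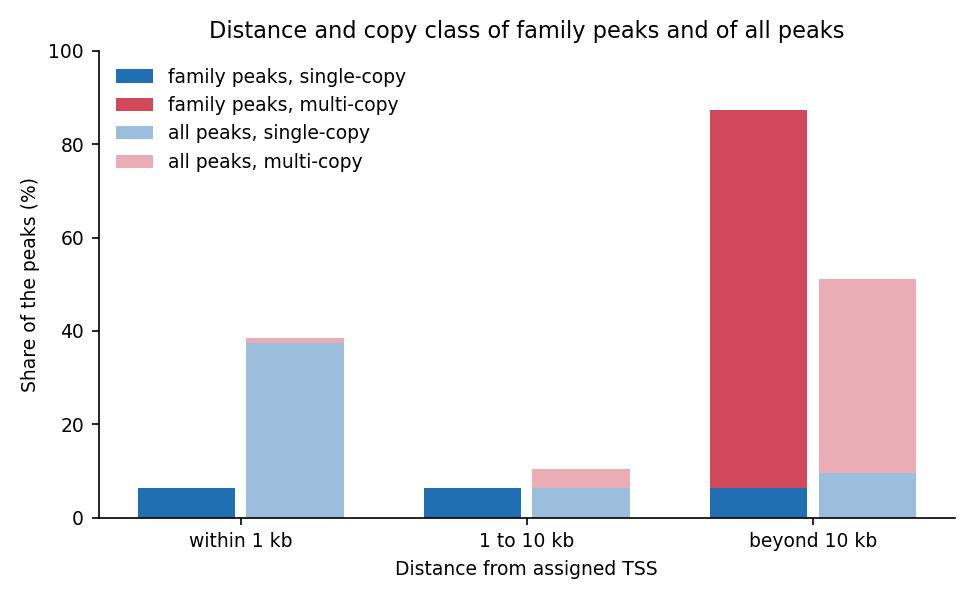
Share of peaks (y axis, percent) by distance from the assigned TSS (x axis), split into single-copy (blue) and multi-copy (red), for the 94 family peaks (dark bars) and all 14082 peaks (pale bars). Within 1 kb lie 6.38% of family peaks and 38.5% of all peaks, and beyond 10 kb 87.2% and 51.1%.

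Among the distant family peaks, 37 of 82 had centres found at least 1000 times (45.1%, 34.8 to 55.9), and over all peaks beyond 10 kb this share was 36.5%. The highest value was 200882 copies, at a Cdh20 peak 210.7 kb upstream whose centre was 32.5% G and C. Family centres beyond 10 kb averaged 60.8% ± 7.15 G and C with a CpG ratio of 0.488 ± 0.277, against 61.6% ± 7.88 and 0.542 ± 0.372 over all peaks that far out (SD over peaks). Distant family peaks were thus close to other distant peaks in base composition.

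Peaks of different family genes often lay on the same sequence. Of the 76 multi-copy peaks, 68 shared at least one 31-base word of the centre with a peak of another family gene. How often multi-copy peaks of other genes share words was not counted, so this is not shown to be particular to the family. Linked by such words, 76 of the 94 peaks fell into 7 sequence groups. The largest, which holds the first run printed above, joined 26 peaks of 12 genes, including Cdh20, Cdh9, Cdh12, Pcdh17 and Pcdh19, and their centres averaged 64.4% ± 2.13 G and C.

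The second run printed above belonged to a group of 14 peaks of 11 genes. Another group had 14 peaks of 9 genes, with centres of 50.6% ± 6.37 G and C. Its commonest word, a repeat of the unit AGG, was in 8 of these centres. A dinucleotide group had 11 peaks of 10 genes, and its commonest word, a repeat of AG, was in 6 of them. The remaining peaks of both groups were linked by other words. The dinucleotide group held 6 centres that were single-copy by the median, among them those of Cdh2, Cdh3 and the Pcdh17 promoter. The commonest shared words of the AGG and dinucleotide groups were thus short tandem repeats. They stood in 583 (4.14%) and 384 (2.73%) of all peak centres, respectively.

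The first run contains the letters AAGATGGCG, which match the known consensus of the zinc-finger factor YY1. The string was chosen after the sequences had been seen and was searched on both strands. It occurred in 24 of 94 family centres (25.5%, 17.8 to 35.2) from 12 genes, all multi-copy, against 14.9% of all peak centres. Among multi-copy peaks the shares were 31.6% in the family and 30.5% over the list, so the string was about as frequent as at other multi-copy peaks.

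The strings that LIM-homeodomain and GATA factors are known to favour were rare. CTAATTG or CTAATGG was found in 0 of 94 family centres, which allows up to 3.19%, and in 0.412% of all centres. With their letters in reversed order these strings were in 0 of 94 and in 0.256%. The GATA strings AGATAA and TGATAA, and the same strings ending in G, were searched on both strands. They were found in 5 family centres (5.32%, 2.29 to 11.9), those of Pcdh8, Pcdh18 (2 peaks), Pcdh20 and Pcdhgb8, and in 4.22% of all centres. Reversed GATA strings were in 2 family centres (2.13%, 0.585 to 7.43) and in 3.12% of all centres. AGNNGGC, letters within the consensus of CTCF, the looping factor of the protocadherin clusters, occurred in 58.5% of family centres and 62.7% of all centres, and its letters in reversed order occurred in 29.8% and 39.8%. Of the 5 clustered peaks only that of Pcdhac2 held AGNNGGC.

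The genes with the most assigned peaks had them far away. Cdh20 (type II) had 10 peaks, Pcdh9 (delta-1) 9, Cdh9 (type II) 8, and Cdh11, Cdh6, Pcdh15 and Pcdh18 had 6 each. Of the 30 genes with a peak, 14 had 1 peak and 16 had more, and 13 had multi-copy peaks only. Over the whole list, 8216 protein-coding genes had a peak. Of these, 2323 had at least 2 peaks and 6042 had at least 1 single-copy peak.

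Cdh20, a type II cadherin of neural tissue, had all 10 peaks between 200.1 and 1767.9 kb from its TSS. There were 7 upstream and 3 downstream, between 487 and 1914 bp wide, and every one was multi-copy. In 2 of them the median was 2 copies, the lowest value that counts as multi-copy. Cdh20 had no peak nearer than 200.1 kb.

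Pcdh9, a neuronal delta-1 protocadherin, had 9 peaks between 579.7 and 1813.8 kb away, all multi-copy. One of them was the narrowest of the family, 335 bp (chr14:93708272-93708607), in an intron of the gene 579.7 kb downstream of the TSS and with 4686 copies of its centre. The nearest Pcdh9 peak was farther from its TSS than the nearest peak of any other family gene.

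Cdh9, a type II cadherin of synapses, had 8 peaks between 391.0 and 1473.5 kb away, and 6 of these were multi-copy. The 2 single-copy peaks were its most distant, 1344.9 and 1473.5 kb upstream. Cdh6, a type II cadherin of kidney and neural crest, had 6 peaks, all upstream, between 53.0 and 1625.7 kb from the TSS. All were multi-copy, with medians from 4 to 3180 copies. Those at 53.0, 1244.6 and 1625.7 kb were single-copy with 75-base words.

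Cdh11, the mesenchymal cadherin also called OB-cadherin, was assigned 6 peaks by the list, between 112.7 and 1576.3 kb away. By the annotation of the same build, only 2 peaks lay in its territory, those at 637.1 and 649.5 kb downstream. The downstream peaks at 962.9 and 1576.3 kb were closer to a TSS of the gene model Gm17316. Both upstream peaks were closer to one of Gm8730. The peak at 1576.3 kb is the one printed under Cdh11 for the second run. The 4 downstream peaks lay past the 3′ end of the gene, from 637.1 kb on, with 1031 to 2791 copies of their centres. The 2 upstream peaks, at 112.7 and 196.5 kb, had 18818 and 18598 copies and held the AGG repeat. The downstream peak at 962.9 kb was linked to the same sequence group by other words. No Cdh11 peak was single-copy.

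Cdh5 encodes VE-cadherin of the endothelium. Its only peak was 369 bp wide (chr8:106451716-106452085), 173.6 kb upstream of the TSS, with 29 copies of its centre. Cdh1, which encodes the E-cadherin of epithelia and of undifferentiated embryonic stem cells, had no assigned peak. Among Cdh1, Cdh2, Cdh5 and Cdh11, then, only Cdh2 had a peak at its promoter in the list. Cdh5 and Cdh11 had multi-copy peaks at over 100 kb and Cdh1 had none. Over all protein-coding genes 23.2% had a peak within 1 kb, and the classical cadherins Cdh4, Cdh22 and Cdh24 had one too. These few genes were picked by name, so their peaks are no account of cell types.

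The widest family peak belonged to Cdh10, a type II cadherin of the brain. It measured 2148 bp (chr15:19607667-19609815), lay 858.7 kb from the TSS past the 3′ end of the gene, had 2497 copies of its centre and belonged to the group of the second printed run. The median width was 817.5 bp for family peaks and 947 bp for all peaks. Clustered and other family peaks had medians of 785 and 821 bp.

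Beyond 10 kb, single-copy peaks were few. There were 6 of 82 (7.32%, 3.40 to 15.1), against 18.8% of all peaks that far out. They were a pair at Cdh9 and 1 each at Cdh12 (545.1 kb), Cdh13 (101.8 kb), Cdh26 (356.6 kb) and Pcdh18 (234.1 kb). Only the peak of Cdh13, the T-cadherin that is anchored without a cytoplasmic tail, lay inside its own gene, in an intron. It was 518 bp wide (chr8:120909027-120909545), its centre was 54.5% G and C, and it shared no 31-base word with any other family peak.

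Of the remaining genes, Cdh7, Cdh12, Cdh18, Cdh26, Pcdh7, Pcdh15, Pcdh18, Pcdh19 and Pcdh20 had their nearest peak between 18.0 and 254.4 kb away. The 6 peaks of Pcdh15, a cadherin of the hair-cell tip link, lay in introns of this long gene and were multi-copy, with medians from 2 to 3050.5 copies. No peak was assigned to Cdh8, Cdh15, Cdh16, Cdh17, Cdh19, Pcdh10, Pcdh11x or Pcdh12, besides Cdh1 and the Cdhr genes. By the annotation of the same build, 9 peaks lay in the territory of Pcdh10, 7 in that of Cdh8 and 2 in that of Pcdh11x, but the list assigned these to other genes. The territory of Pcdh7, with 1 assigned peak, held 18.

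A large territory did not mean a high density of peaks. The 10.0 Mb on chromosome 15 from Cdh6 through Cdh9, Cdh10 and Cdh12 to Cdh18 held TSSs of 6 protein-coding genes and 28 peaks, or 2.80 per Mb (exact 95% Poisson interval 1.86 to 4.05). The 14.1 Mb on chromosome 14 from Pcdh8 through Pcdh17 and Pcdh20 to Pcdh9 held 38 peaks, or 2.69 per Mb (1.90 to 3.69). The 6.21 Mb on chromosome 1 from Cdh20 to Cdh19, which hold TSSs of 23 genes, had 4.03 per Mb (2.61 to 5.94). Over all chromosomes with a peak the density was 5.50 per Mb, above the upper bound of the first 2 of these regions and within the interval of the third.

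Single-copy peaks were thinner still. They numbered 0.300 per Mb in the Cdh6 to Cdh18 region, 0.354 in the Pcdh8 to Pcdh9 region and 0.644 in the Cdh20 to Cdh19 region, against 2.95 per Mb over all chromosomes. The many peaks that carry the names of Cdh6, Cdh9 and Pcdh9 were thus spread over long stretches with few other start sites.

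**Figure D4:**
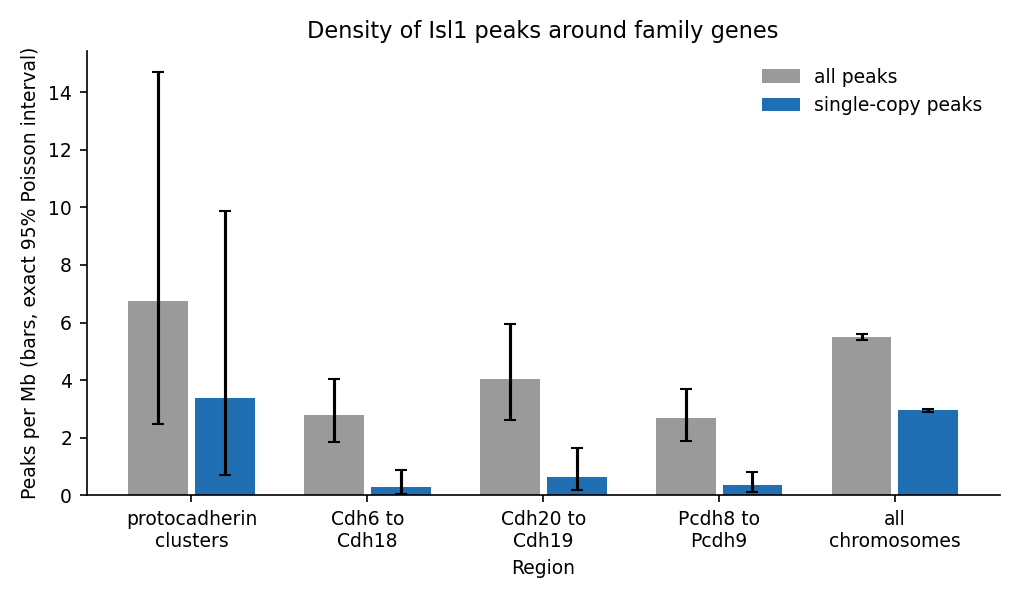
Peaks per Mb (y axis) in the region of the 3 protocadherin clusters, in 3 regions around other family genes and over all chromosomes with a peak (x axis); grey bars are all peaks, blue bars single-copy peaks, and error bars are exact 95% Poisson intervals for counting error. The Cdh6 to Cdh18 and Pcdh8 to Pcdh9 regions lie at 2.80 and 2.69 peaks per Mb, below the 5.50 of all chromosomes. The cluster region lies at 6.75 with an interval of 2.48 to 14.7. The Cdh20 to Cdh19 region starts at the Cdh20 TSS and leaves out the upstream Cdh20 peaks.

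The protocadherin clusters were the reverse case, with many start sites and few peaks at them. The 0.889 Mb on chromosome 18 from the first alpha to the last gamma TSS held 46 annotated TSS positions and 6 peaks, or 6.75 per Mb (2.48 to 14.7), and 3 of the 6 were single-copy. The peak density was therefore not distinguishable at this count from the 4.90 per Mb of chromosome 18. A peak edge lay within 1 kb of 1 of the 46 TSSs.

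That TSS belonged to Pcdhac2, the last variable exon of the alpha cluster, which is of the C type that is expressed more constantly than its neighbours. The peak was 1077 bp wide (chr18:37303101-37304178), with its midpoint 16 bp past the TSS in a coding exon that the annotation merges into the alpha gene Pcdha11. Its centre was single-copy and 75% G and C, with a CpG ratio of 0.57. The other 10 alpha TSSs, the 25 beta TSSs and the 10 gamma TSSs had none. The median CpG ratio of the kilobase around the TSS was 0.697 for alpha, 0.635 for gamma and 0.396 for beta. The annotation gave 11 TSSs for 14 alpha genes and 10 for 22 gamma genes, and some beta genes had several. Start sites missing from it were not checked.

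The beta genes, each a single exon, had 3 peaks under 2 names. The Pcdhb14 peak (chr18:37619871-37620471) lay 12.9 kb past the TSS with 1492 copies of its centre. The first Pcdhb22 peak (chr18:37681344-37681723), 379 bp wide and 3526 bp past the TSS, was single-copy with a CpG ratio of 1.99, the highest of the family. The second Pcdhb22 peak (chr18:37735343-37736183) lay 57.8 kb past the TSS with 2 copies. All 3 were intergenic, and the later pair lay beyond the last beta gene.

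The gamma cluster had 1 peak, assigned to Pcdhgb8, which the RefSeq table lists as a transcribed pseudogene. It was 785 bp wide (chr18:37922936-37923721), single-copy, and lay 1873 bp past the assigned TSS, within an intron of the merged gamma gene model. The sixth peak of the region, between the beta and gamma arrays, was multi-copy and assigned to Slc25a2, a mitochondrial carrier gene.

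**Figure D5:**
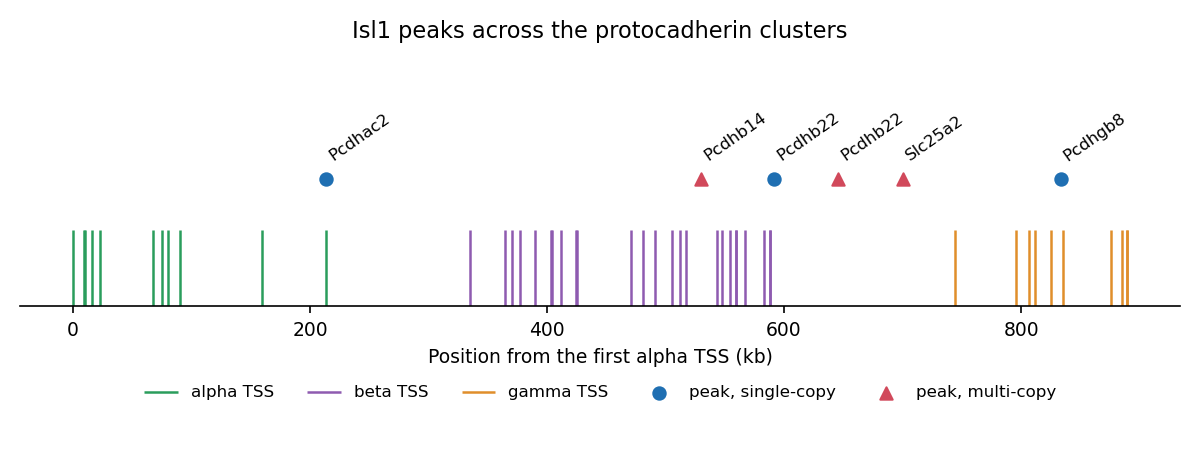
Positions of the 46 annotated TSSs of the alpha (green), beta (purple) and gamma (orange) protocadherin clusters (vertical lines) and of the 6 Isl1 peaks in their span (circles, single-copy; triangles, multi-copy; labelled by assigned gene), in kb from the first alpha TSS (x axis). The Pcdhac2 peak at 213.7 kb is the only one at a TSS.

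Genes that work with cadherins had more promoter peaks than the family itself. Of 14 catenins and junction partners, 11 had a peak and 10 had one within 1 kb. Among the 10 were Ctnnb1 (beta-catenin), Ctnna1 (alpha-catenin) and Jup (plakoglobin), which link classical cadherins to the cell skeleton. Ctnnd1, Vcl and Pkp3 had no peak, and Ctnna3 had 4 multi-copy peaks, the nearest at 28.4 kb. Of 18 further members of the cadherin superfamily that the symbol rule leaves out, 10 had a peak and 5 had one within 1 kb. Those 5 were Dchs1, Celsr1, Celsr2, Clstn1 and Clstn2, which encode a planar polarity cadherin, adhesion receptors and calsyntenins, whereas of the desmosomal cadherins Dsc3 had 4 multi-copy peaks, the nearest at 139.7 kb, and Dsc1, Dsc2, Dsg1a, Dsg2 and Dsg3 had none. Both lists were chosen with results of these data known and are given as counts. Over all protein-coding genes, 37.5% had a peak and 23.2% had one within 1 kb.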

How the data were processed

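The study's authors aligned reads to mm9 with Bowtie2, removed duplicates with Picard 1.136, called peaks with MACS14 without a fragment model, removed blacklisted regions, kept peaks common to the replicates with bedtools 2.15 and assigned each to its closest TSS with HOMER. They deposited 1 combined list of peak positions, distances in bp and gene symbols. Positions were used as listed. Whether starts count from 0 or 1 is not given in the sources used here, which could shift a printed sequence by 1 base against the peak.

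Of 14165 deposited lines, 83 were identical repeats, leaving 14082 peaks. None of the family peaks was repeated. Family members and all gene lists were chosen with earlier results of these data known. Genes were named in full if they had a peak within 1 kb, ranked among the 5 with most peaks (ties taken alphabetically, Cdh11 and Cdh6 before Pcdh15 and Pcdh18), held the widest or narrowest peak, or were Cdh1, Cdh2, Cdh5 or Cdh11.

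The mm9 genome and GENCODE M1 annotation gave copy numbers (median genome occurrences of 31-base words in the central 200 bp, both strands), composition, strings and locations. The RefSeq table, of another build, gave gene names and classes alone. Copy counting was tested on simulated sequence. Python 3.11.15, pandas 2.3.3, numba 0.67.0 and pysam 0.24.0 were used. No significance test was run, since 1 list combines both ChIP samples. Intervals are 95% Wilson or exact Poisson and cover counting error. The share that a count of 0 allows is instead 3 divided by the number of peaks.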

Additional observations from a re-analysis of the deposited data

How the results depend on the processing

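Of 41 alternative values for 12 results, 26 stayed within 1.5 times a count, the 95% interval of a share or 1 SD over peaks of a mean or median. Counting single-copy peaks alone left 18 family peaks and 14 other genes with a peak, and moved the shares within 1 kb and beyond 10 kb to 33.3% each (all single-copy peaks, 70% and 18.0%). Taking the closest GENCODE TSS gave 149 family peaks, because peaks listed under other genes then counted. Requiring 2 peaks left 1 clustered and 15 other genes, a peak within 10 kb left 9 other genes, and a peak within 1 kb left 1 clustered and 5 other genes. The multi-copy share fell to 43.6% with 75-base words (28.4% over all peaks), 69.1% with a median of at least 10 copies (38.8%) and 63.8% over whole peaks, counted for the family alone. In central windows of 400 bp, GATA strings rose to 14.9% (10.9% over all peaks) and AGNNGGC to 69.1% (76.6%). The CpG ratio, 0.565 in the family and 0.703 over all peaks, changed sides with single-copy peaks alone (0.874 and 0.838), and GATA strings were then at 11.1% (4.56%). In each share given with its value over all peaks, the family stayed on the same side of all peaks. No paired analysis was possible because the list combines both ChIP samples, and for the same reason no replicate could be left out. Depth is unknown.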
